A study of Mus musculus with 100 samples.

Results

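The genes described here were 10 components of the TGF-beta and BMP pathway in the mouse knee: the ligands *Tgfb1*, *Tgfb2* and *Tgfb3*, the matrix proteins *Tgfbi* and *Ltbp2*, the activin subunit gene *Inhba*, the BMP-family ligands *Bmp2*, *Bmp4* and *Gdf5*, and the BMP antagonist *Grem1*. They were taken from the count table by name, and all 10 were present among its 17310 genes. Whole knee joints of 3 inbred strains were profiled by RNA-seq, namely STR/ort, C57BL/6 and MRL/MpJ, which the labels describe as highly, moderately and not susceptible to post-traumatic osteoarthritis (PTOA). The right knee of mice aged 10 weeks was injured by a single compressive load of 10 to 12 N on the tibia, which ruptures the anterior cruciate ligament, and the left knee served as the uninjured contralateral control. Joints were collected before injury (0-day) and from both sides after injury, on 1-day, 1-week and 2-weeks, which gave 21 groups of 4 or 5 libraries and 100 libraries in all. The contralateral control came from a mouse that had been injured on the other side, so it was not a naive joint. RNA came from the whole joint, bone ends and some adhering soft tissue included, and in such samples fewer cells of a type and less RNA per cell cannot be told apart.

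Depth was 6182016 to 20986027 counts per library (median 10582591). The 0-day, 1-day and 1-week libraries (70) belonged to experimental batch 1 and the 2-weeks libraries (30) to batch 2, so the 2-weeks time point and the batch cannot be told apart and levels were compared across times only within batch 1. Cartilage, bone, synovial lining, tendon, muscle and marrow markers were detected in every group, and no marker gene in the table was at 0 in a whole group, although 1 of 5 skin markers and 5 of 8 erythroid markers were in the table. Levels are given as CPM, the count scaled to the size of the library, after TMM scaling. A difference was called when the adjusted p (edgeR's quasi-likelihood test with Benjamini-Hochberg adjustment over 17310 genes) was below 0.05 and the fold change was above 1.5. Nothing in the labels says whether the replicates of batch 1 came from separate mice, so p-values measure the spread between these libraries.

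TGF-beta ligands are secreted as latent complexes that are held in the extracellular matrix and act, once released, through SMAD2 and SMAD3. Activins, which are dimers of inhibin beta subunits such as the product of *Inhba*, use the same SMADs, whereas BMPs and GDF5 act through SMAD1, SMAD5 and SMAD9, and secreted antagonists such as Gremlin 1 bind BMPs before they reach their receptors. In the joint, TGF-beta signaling is known for its roles in cartilage maintenance, synovial fibrosis and osteophyte growth, and GDF5 marks the embryonic joint interzone.

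The promoters of the 3 members that were higher in injured joints of all strains, and of the TGF-beta ligand called in the most strain comparisons, are shown as the reference sequence of the genes whose values the results turn on. Each runs from 250 bases before to 50 bases after the RefSeq transcription start of the GRCm38.p6 assembly, which is built from C57BL/6J, and the strain differences of STR/ort and MRL/MpJ are not contained in it. Capitals mark matches to the searched motifs.
Tgfbi: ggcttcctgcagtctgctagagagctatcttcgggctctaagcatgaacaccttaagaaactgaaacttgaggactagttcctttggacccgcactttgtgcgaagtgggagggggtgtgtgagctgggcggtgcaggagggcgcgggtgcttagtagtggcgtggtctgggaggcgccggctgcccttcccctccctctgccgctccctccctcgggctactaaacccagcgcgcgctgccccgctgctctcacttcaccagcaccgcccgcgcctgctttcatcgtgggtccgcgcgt
Ltbp2: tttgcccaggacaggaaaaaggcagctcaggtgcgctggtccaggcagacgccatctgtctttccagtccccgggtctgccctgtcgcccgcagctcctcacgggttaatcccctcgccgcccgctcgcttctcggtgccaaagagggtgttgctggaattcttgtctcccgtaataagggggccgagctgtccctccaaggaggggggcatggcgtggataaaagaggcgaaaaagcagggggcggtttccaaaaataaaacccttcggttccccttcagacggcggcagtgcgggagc
Inhba: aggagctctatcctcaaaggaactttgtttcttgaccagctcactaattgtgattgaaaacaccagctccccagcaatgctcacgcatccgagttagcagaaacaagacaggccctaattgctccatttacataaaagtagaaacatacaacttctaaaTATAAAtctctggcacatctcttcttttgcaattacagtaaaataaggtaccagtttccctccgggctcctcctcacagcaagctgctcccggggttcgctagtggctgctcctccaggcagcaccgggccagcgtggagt
Tgfb2: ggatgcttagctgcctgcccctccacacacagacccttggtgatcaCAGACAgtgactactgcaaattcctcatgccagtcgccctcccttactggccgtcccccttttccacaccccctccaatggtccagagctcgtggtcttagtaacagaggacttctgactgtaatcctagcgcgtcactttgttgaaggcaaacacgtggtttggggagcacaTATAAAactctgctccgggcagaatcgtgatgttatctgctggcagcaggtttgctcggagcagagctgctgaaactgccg
The *Tgfbi* window lies at chr13:56609336-56609635 on the plus strand, *Ltbp2* at chr12:84876442-84876741 on the minus strand, *Inhba* at chr13:16011601-16011900 on the plus strand and *Tgfb2* at chr1:186705940-186706239 on the minus strand. The motifs were searched on both strands: the AP-1 motif TGANTCA (found in 7.81% of 32851 RefSeq promoters of the same length), the CRE motif TGACGTCA (1.79%), the TATA motif TATAAA (13.6%), the palindromic SMAD motif GTCTAGAC (0.213%) and the CAGA motif CAGACA (21%). Of the 7 members with a promoter in the table (*Tgfb1*, *Tgfb2*, *Tgfbi*, *Ltbp2*, *Inhba*, *Bmp4*, *Grem1*), *Inhba* held a TATA match starting at -91 and *Tgfb2* a TATA match at -31 and a CAGA match at -204 relative to the start. The other five held none of these letters in this window, and *Tgfb3*, *Bmp2* and *Gdf5* were not matched.

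Which members responded to the injury was asked by comparing injured with uninjured contralateral joints within each strain and time point. Over 9 such comparisons of 10 members, 28 of 90 differences were called, 27 of them higher in injured joints. *Tgfbi*, *Ltbp2* and *Inhba* were higher in injured joints of all 3 strains at 1-day and at 1-week, *Tgfb3* rose at 1-week in C57BL/6 and STR/ort, and *Gdf5* rose at 1-week and 2-weeks in the same strains. *Tgfb1*, *Tgfb2*, *Bmp2* and *Bmp4* passed the threshold in none of the 9 comparisons, and *Grem1* fell in injured STR/ort joints at 1-day.

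**Figure D1:**
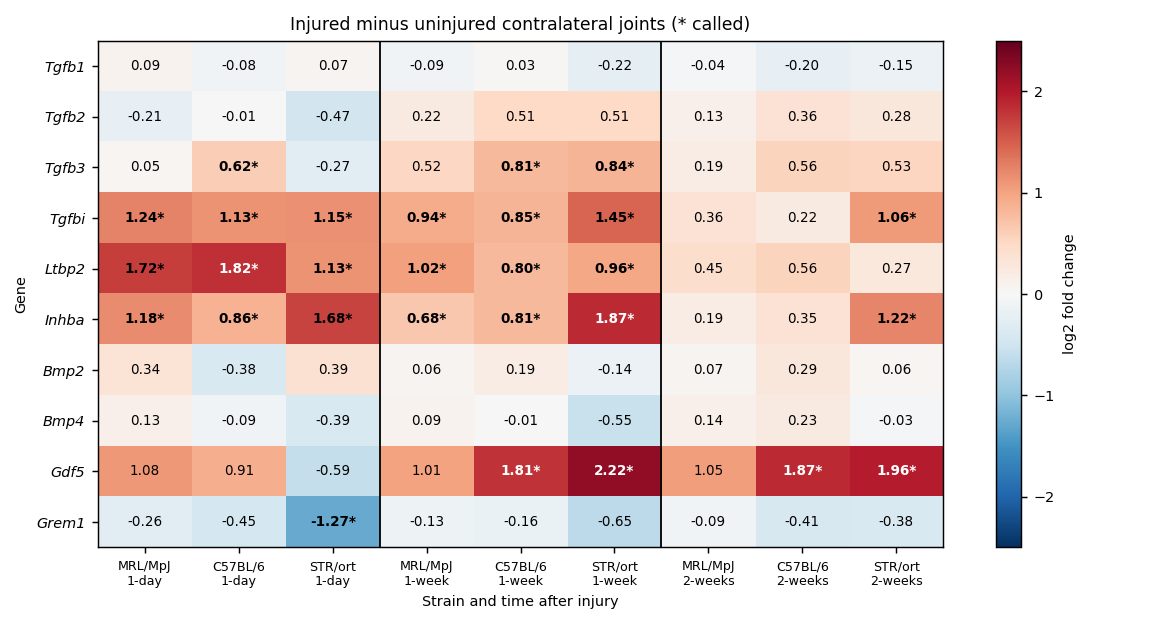
Log2 fold change between injured and uninjured contralateral joints for the 10 members (rows) in each strain and time point (columns), with an asterisk on called differences and a color scale in log2 units. The 28 called cells lie in *Tgfbi*, *Ltbp2*, *Inhba*, *Tgfb3*, *Gdf5* and, as the only called decrease, *Grem1* in STR/ort at 1-day (-1.27).

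At 1-day, 3 members were higher and none lower in MRL/MpJ, where 1.53% of all genes were called higher and 0.497% lower. In C57BL/6, 4 were higher and none lower (background 4.26% higher and 1.34% lower), and in STR/ort 3 were higher and 1 lower (1.61% and 2.7%). At 1-week, the counts were 3 higher in MRL/MpJ (2.93% of all genes higher, 0.191% lower), 5 higher in C57BL/6 (4.75%, 1.07%) and 5 higher in STR/ort (5.67%, 3.54%), with no member lower. At 2-weeks no member was called in MRL/MpJ (1.14% of all genes higher, 0.0173% lower), 1 was higher in C57BL/6 (2.88%, 0.0693%) and 3 were higher in STR/ort (4.34%, 0.318%). The median log2 fold change of the members lay between -0.10 and 0.67 over the 9 comparisons, while that of all genes lay between -0.03 and 0.01. The members were chosen with earlier results of these data known, so their contrast with all genes may reflect that choice.

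*Tgfb1* (chr7:25687002-25705077, plus strand, mm10), the most widely expressed TGF-beta ligand, was called in none of the 48 comparisons of the main fits. Its log2 fold change between injured and uninjured joints lay between -0.22 and 0.09. Group means in batch 1 ranged from 67.3 CPM in uninjured MRL/MpJ joints at 1-day to 90.1 CPM in uninjured STR/ort joints at 1-week, and all 6 groups of 2-weeks lay between 133 and 153 CPM. The step to 2-weeks coincides with the change of batch, and cannot be told apart from it. The small strain differences of *Tgfb1* at 1-week turned direction and passed the threshold under RUVg with 1 factor, which removes variation shared by 25 housekeeping genes. The log2 difference between injured STR/ort and C57BL/6 joints was 0.16 in the main fit. Under RUVg with 1 factor it was -0.59 and was called.

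*Tgfb2* (chr1:186622792-186705989, minus strand), a ligand with prominent roles in developing skeletal tissue, did not pass the threshold for injury in any strain, although its adjusted p was below 0.05 with a smaller fold change in 5 comparisons. At 1-week the log2 fold change was 0.51 (SE 0.13; adjusted p = 0.00385) in STR/ort and 0.51 (adjusted p = 0.00477) in C57BL/6. In STR/ort at 1-week the 5 injured joints had 120, 98.8, 102, 77.2 and 98.5 CPM and the 4 uninjured joints 72, 66.9, 75.2 and 63.8 CPM. The injured joints were all above the uninjured ones, but the fold change stayed under 1.5. RUVg carried the C57BL/6 difference past the threshold (0.60 with 1 factor, adjusted p = 0.000392). At 1-day in STR/ort the difference was in the other direction (-0.47, adjusted p = 0.00273), with 44.0 ± 4.92 CPM (SD, n = 5) in injured and 60.0 ± 9.21 CPM (SD, n = 5) in uninjured joints.

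*Tgfb3* (chr12:86056745-86079041, minus strand), the isoform linked to scar-poor repair in developmental studies, was higher in injured C57BL/6 joints at 1-day and 1-week and in injured STR/ort joints at 1-week. In C57BL/6 at 1-day the injured joints had 76.6, 55.4, 71.9, 86.8 and 62.5 CPM and the uninjured joints 55.6, 47.6, 39.3, 43.0 and 44.5 CPM. The groups overlapped by a narrow margin, in injured replicate 2 and uninjured replicate 1. The log2 fold change was 0.62 (SE 0.12; adjusted p = 0.000244), and it fell below the fold threshold without injured replicate 4 (0.53) or without uninjured replicate 3 (0.57), and when libraries were scaled by the housekeeping genes (0.56). In C57BL/6 at 1-week the injured joints had 57.7, 61.9, 60.8, 66.4 and 73.1 CPM against 34.1, 33.1, 43.4, 39.4 and 36 CPM, a log2 fold change of 0.81 (SE 0.12; adjusted p = 1.61e-05). All injured joints lay above all uninjured ones.

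STR/ort joints at 1-week had the highest *Tgfb3* of the series, with 164, 133, 97.6, 99.9 and 115 CPM on the injured side and 73.1, 76.5, 49.2 and 72.3 CPM on the uninjured side. The sides did not overlap, and the log2 fold change was 0.84 (SE 0.13; adjusted p = 1.16e-05). In MRL/MpJ at 1-week the difference of 0.52 had an adjusted p of 0.0135 and a fold change under 1.5, with every injured joint (49.3 to 64.0 CPM) above every uninjured joint (36.9 to 39.4 CPM). At 2-weeks the log2 fold changes were 0.56 in C57BL/6 (adjusted p = 0.000138) and 0.53 in STR/ort (adjusted p = 0.000105), both under the fold threshold. The C57BL/6 difference passed it without uninjured replicate 4 (0.59) or 5 (0.61).

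**Figure D2:**
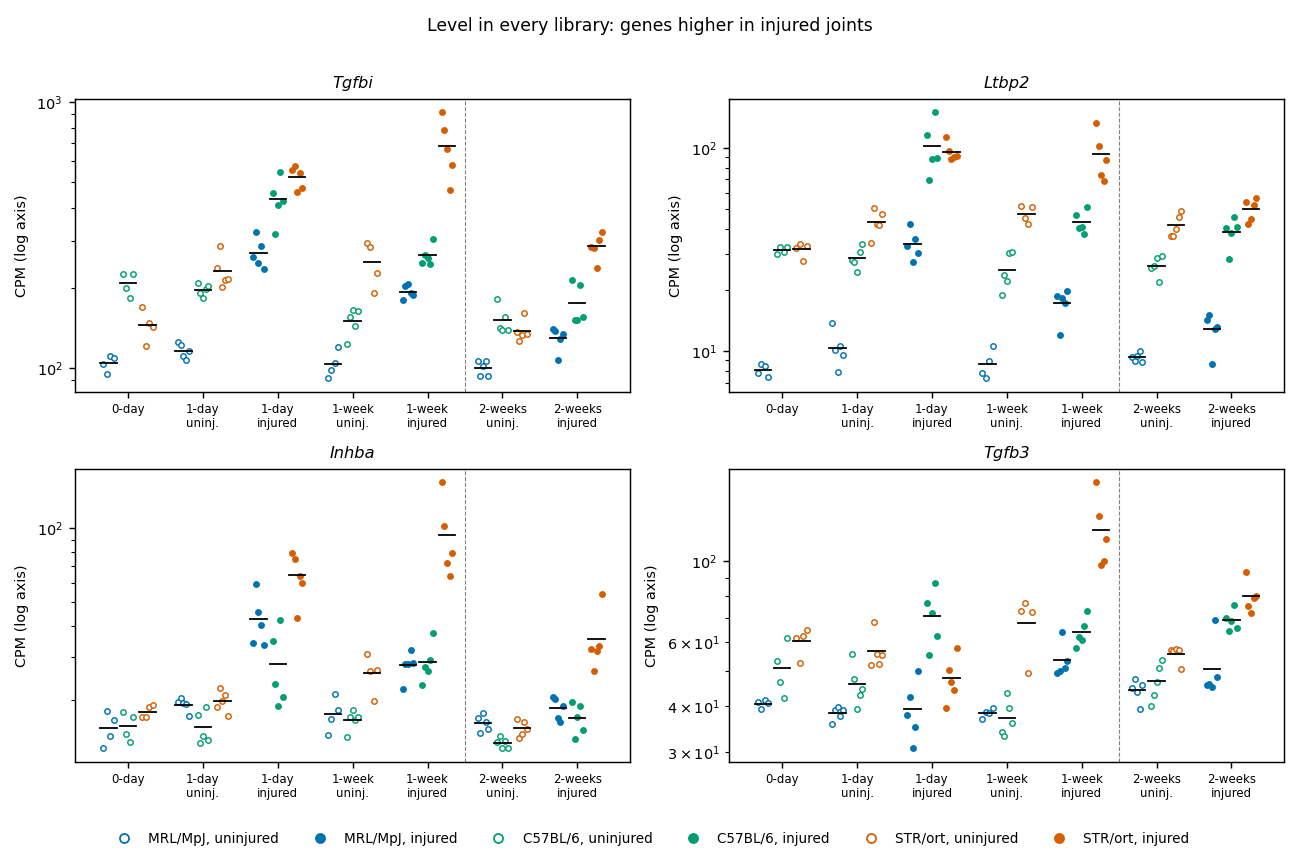
CPM in every library on a log axis for *Tgfbi*, *Ltbp2*, *Inhba* and *Tgfb3*, by time and joint, with open circles for uninjured joints (0-day included), filled circles for injured joints, one color per strain and a bar at each group mean. The dashed line separates the batches. Injured STR/ort joints at 1-week hold the highest group means of *Tgfbi* (684 CPM), *Inhba* (94.4 CPM) and *Tgfb3* (122 CPM), and MRL/MpJ has the lowest *Ltbp2* at each time.

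*Tgfbi* (chr13:56609523-56639562, plus strand) encodes a collagen-binding matrix protein that TGF-beta induces, and it had the highest level of the members per length of transcript (a mean of 86.4 CPM per kilobase of annotated exons over the 100 libraries, against 43.5 for *Tgfb1*). At 1-day its log2 fold change was 1.24 in MRL/MpJ (SE 0.11; adjusted p = 3.68e-09), 1.13 in C57BL/6 (SE 0.11; adjusted p = 3.97e-09) and 1.15 in STR/ort (SE 0.11; adjusted p = 5.92e-09). The injured MRL/MpJ joints had 262, 324, 247, 288 and 235 CPM and the uninjured ones 125, 122, 111, 107 and 116 CPM. Injured and uninjured joints were separated without overlap in all 3 strains at 1-day and at 1-week.

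At 1-week *Tgfbi* rose by 0.94 in MRL/MpJ (SE 0.14; adjusted p = 3.84e-05), 0.85 in C57BL/6 (SE 0.13; adjusted p = 2.63e-05) and 1.45 in STR/ort (SE 0.14; adjusted p = 1.37e-08). The STR/ort joints had 917, 789, 664, 468 and 579 CPM on the injured side and 296, 284, 191 and 227 CPM on the uninjured side. Even the lowest injured STR/ort joint was above every joint of the other strains at 1-week. At 2-weeks only STR/ort passed the threshold, with 286, 282, 237, 304 and 324 CPM against 136, 126, 133, 161 and 134 CPM (log2 fold change 1.06, SE 0.10; adjusted p = 4.74e-09). The 2-weeks differences were 0.36 in MRL/MpJ (adjusted p = 0.0564) and 0.22 in C57BL/6 (adjusted p = 0.19).

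*Ltbp2* (chr12:84783212-84876532, minus strand) encodes a latent TGF-beta binding protein of the fibrillin family that is associated with elastic fibers and, unlike its relatives, is not known to bind latent TGF-beta. At 1-day it showed the largest injury effect of any member in MRL/MpJ and C57BL/6, with log2 fold changes of 1.72 (SE 0.17; adjusted p = 5.25e-08) and 1.82 (SE 0.15; adjusted p = 4.26e-10). The injured MRL/MpJ joints had 32.8, 42.1, 27.5, 35.7 and 30.3 CPM and the uninjured ones 13.8, 10.1, 7.86, 10.6 and 9.58 CPM. In C57BL/6 the values were 116, 69.8, 87.8, 150 and 88.8 CPM against 28.1, 27.3, 24.6, 30.6 and 33.7 CPM. The lowest injured joint in each of these strains was well above the highest uninjured one. In STR/ort at 1-day the log2 fold change was 1.13 (SE 0.15; adjusted p = 2.23e-06), from 43.2 ± 6.44 CPM (SD, n = 5) to 95.7 ± 10.2 CPM (SD, n = 5).

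At 1-week the effect on *Ltbp2* was 1.02 in MRL/MpJ (SE 0.19; adjusted p = 0.000567), 0.80 in C57BL/6 (SE 0.15; adjusted p = 0.00031) and 0.96 in STR/ort (SE 0.15; adjusted p = 3.19e-05), again without overlap between sides. Within injured joints the level was lower at 1-week than at 1-day in MRL/MpJ (log2 difference -0.94, adjusted p = 2.8e-06) and in C57BL/6 (-1.25, adjusted p = 1.23e-06), whereas in STR/ort it was -0.04 (adjusted p = 0.855). At 2-weeks no strain passed the threshold (0.45, 0.56 and 0.27 in MRL/MpJ, C57BL/6 and STR/ort). The C57BL/6 value passed without injured replicate 2 (0.65) or uninjured replicate 3 (0.59) or 5 (0.61), and under RUVg with 1 factor (0.61).

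*Inhba* (chr13:16011851-16031621, plus strand), the subunit gene of activin A, had its largest injury effects in STR/ort. At 1-day the injured STR/ort joints had 79.3, 74.9, 43.2, 64.0 and 60.0 CPM and the uninjured ones 18.6, 22.3, 19.7, 20.9 and 17.1 CPM, a log2 fold change of 1.68 (SE 0.18; adjusted p = 5.87e-08). At 1-week the values were 154, 102, 72.1, 64.0 and 79.4 CPM against 30.8, 26.1, 19.7 and 26.6 CPM (1.87, SE 0.19; adjusted p = 1.79e-08). At 2-weeks they were 32.2, 26.3, 31.6, 33.3 and 54.2 CPM against 16.7, 14.0, 14.5, 16.3 and 15.2 CPM (1.22, SE 0.13; adjusted p = 2.29e-08). No injured STR/ort joint fell within the uninjured range at any of these times.

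In MRL/MpJ, *Inhba* rose by 1.18 at 1-day (SE 0.18; adjusted p = 7.66e-05), from 19.1 ± 1.16 to 42.5 ± 10.5 CPM (SD, n = 5 each), and by 0.68 at 1-week (SE 0.19; adjusted p = 0.0355). The 1-week call in MRL/MpJ was close to the threshold: it was lost when any of 7 of the 9 libraries was left out (all but injured replicate 1 and uninjured replicate 3; log2 fold change 0.60 to 0.70, adjusted p 0.0598 to 0.153) and under RUVg scaling (0.67 with 1 factor, adjusted p = 0.0542). In C57BL/6 the increase was 0.86 at 1-day (SE 0.19; adjusted p = 0.00122) and 0.81 at 1-week (SE 0.18; adjusted p = 0.00218). At 2-weeks the differences were 0.19 in MRL/MpJ (adjusted p = 0.93) and 0.35 in C57BL/6 (adjusted p = 0.111).

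Neither *Bmp2* nor *Bmp4* was called between injured and uninjured joints. *Bmp2* (chr2:133552159-133562885, plus strand), an inducer of cartilage and bone formation, had group means from 6.09 to 13.1 CPM and log2 fold changes between injured and uninjured joints from -0.38 to 0.39. *Bmp4* (chr14:46383520-46390669, minus strand), a related ligand, ranged from 7.91 to 15.5 CPM by group mean. The injured STR/ort joints at 1-week had 9.75, 10.1, 8.91, 10.6 and 13.3 CPM and the uninjured joints 18.7, 14.9, 14.3 and 14.0 CPM. The injured joints were all lower, and the log2 fold change of -0.55 (SE 0.14; adjusted p = 0.0042) fell short of the fold threshold. With the replicate number as a block, a pairing inferred from the data and not given by the labels, it was -0.65 (adjusted p = 0.000687) and passed. It also passed without injured replicate 5 (-0.66) or uninjured replicate 3 (-0.59) or 4 (-0.60), and under RUVg with 1 factor (-0.59).

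*Gdf5* (chr2:155941023-155945367, minus strand), a BMP-family ligand of the joint interzone, was the rarest member. Its count was below 20 in 87 of 100 libraries, with a median of 5 counts, and 6 libraries had 0 counts, which allows a level of up to 0.247 to 0.517 CPM (3 counts, counting error only). In STR/ort at 1-week the injured joints had 10.8, 3.39, 3.39, 2.85 and 3.49 CPM and the uninjured joints 0.628, 0.967, 0.575 and 1.91 CPM (log2 fold change 2.22, SE 0.41; adjusted p = 0.000226). Injured replicate 1 stood far above the others, and without it the log2 fold change was 1.69 (adjusted p = 0.000958). At 2-weeks the increase was 1.87 in C57BL/6 (SE 0.32; adjusted p = 0.000114) and 1.96 in STR/ort (SE 0.28; adjusted p = 4.6e-06), from 0.625 ± 0.26 to 2.25 ± 0.986 CPM (SD, n = 5 each) and from 0.857 ± 0.245 to 3.35 ± 0.555 CPM (SD, n = 5 each).

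In C57BL/6 at 1-week the called increase of *Gdf5* (1.81, SE 0.60; adjusted p = 0.0469) rested on 0 to 0.405 CPM in uninjured joints, and 8 of 10 libraries ended the call when left out (all but injured replicate 3 and uninjured replicate 5; adjusted p 0.052 to 0.15). RUVg with 1 factor ended it too (adjusted p = 0.0534). In MRL/MpJ the log2 fold changes were 1.08, 1.01 and 1.05 at the 3 times, none called, with 0.65 ± 0.229 CPM in injured and 0.315 ± 0.163 CPM in uninjured joints at 2-weeks (SD, n = 5 each). The injury effect on *Gdf5* was not called different between any pair of strains, with log2 differences from -1.67 to 1.20.

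*Grem1* (chr2:113746164-113758646, minus strand), which encodes the secreted BMP antagonist Gremlin 1, was the single member called lower after injury. Its count was below 20 in 7 of 100 libraries, with a lowest count of 7 and a median of 57. Injured STR/ort joints had the lowest group mean at each later time (2.10, 1.91 and 1.61 CPM), so their values rest on few reads. In STR/ort at 1-day the injured joints had 2.39, 2.75, 1.72, 1.54 and 2.07 CPM and the uninjured ones 7.99, 4.99, 2.15, 4.38 and 4.61 CPM, a log2 fold change of -1.27 (SE 0.25; adjusted p = 0.00101). One uninjured joint, replicate 3, lay within the injured range. At 1-week in STR/ort the difference of -0.65 was not called (adjusted p = 0.106) until uninjured replicate 2 was left out (-0.88, adjusted p = 0.0198). In MRL/MpJ and C57BL/6 the log2 fold change lay between -0.45 and -0.09, none called, although RUVg with 2 factors called it in C57BL/6 at 1-day (-0.61, adjusted p = 0.0308).

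**Figure D3:**
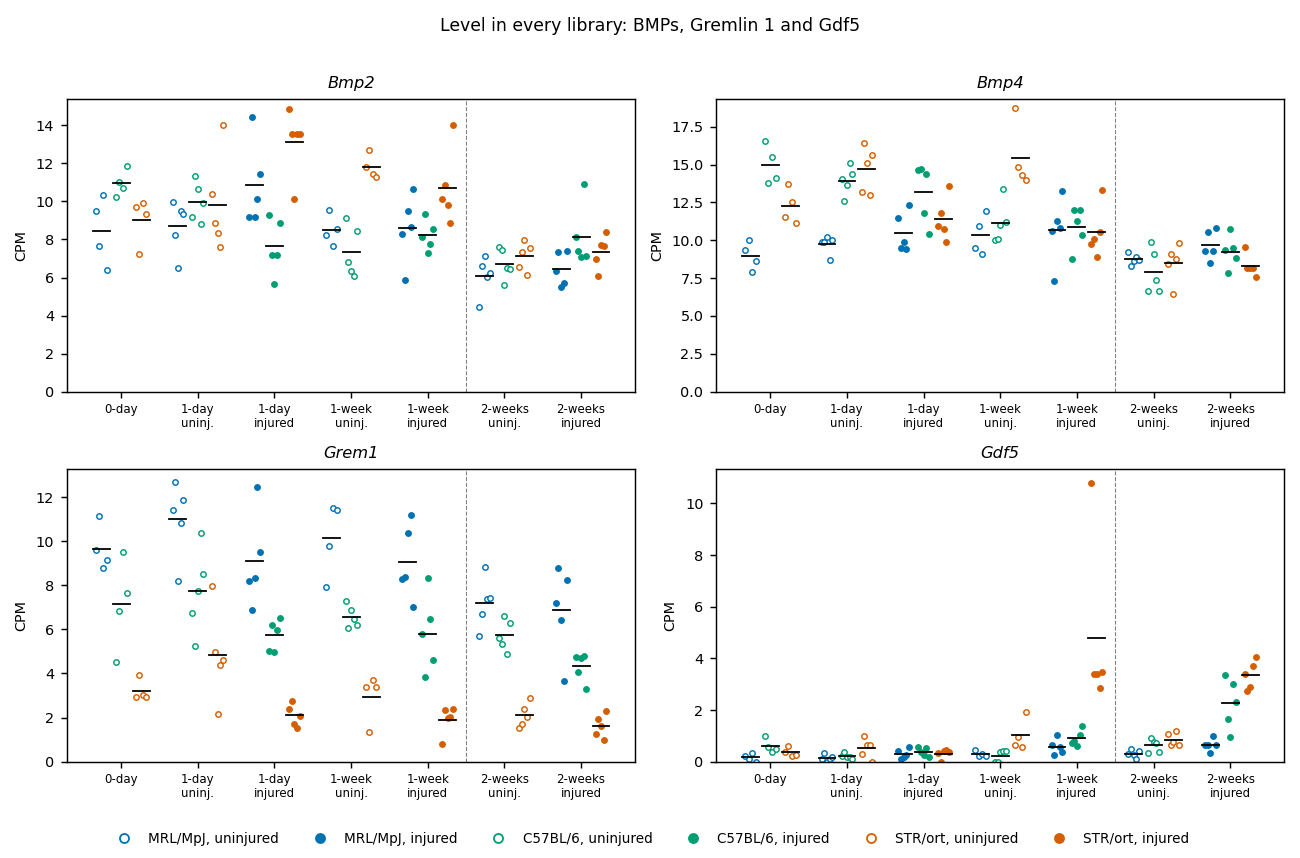
CPM in every library on a linear axis from 0 for *Bmp2*, *Bmp4*, *Grem1* and *Gdf5*, by time and joint, with symbols, colors, mean bars and the dashed batch line as in the plot of the injury-responsive genes. *Grem1* is ordered MRL/MpJ, C57BL/6, STR/ort from high to low by group mean at every time and joint, and *Gdf5* is highest in injured STR/ort joints at 1-week, where 1 library reaches 10.8 CPM.

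Whether the strains differed in their response was tested with the difference of the injury effect between strains. Of 90 such differences, 6 were called. At 1-day, the effect on *Tgfb3* was -0.27 in STR/ort and 0.62 in C57BL/6, a difference of -0.89 (SE 0.16; adjusted p = 0.000922), and that on *Bmp2* was 0.39 and -0.38, a difference of 0.76 (SE 0.22; adjusted p = 0.0438). These were 2 of 10 members, with 2.66% of all genes called in that contrast. The *Bmp2* call was lost when any of 12 of 20 libraries was left out (adjusted p 0.0586 to 0.0889), namely injured replicates 2, 3 and 4 and uninjured replicates 2, 3 and 5 of C57BL/6 and injured replicates 1, 2 and 4 and uninjured replicates 2, 3 and 4 of STR/ort. It was also lost under housekeeping scaling (adjusted p = 0.0615) and when the fit held just the compared strains (adjusted p = 0.0566). No member was called between STR/ort and MRL/MpJ (0.162% of all genes) or between C57BL/6 and MRL/MpJ (0.318%) at 1-day. Between STR/ort and C57BL/6 the differences of *Inhba* (0.82, adjusted p = 0.0674), *Ltbp2* (-0.69, adjusted p = 0.0549) and *Grem1* (-0.82, adjusted p = 0.183) were not called, and single libraries decided them. *Inhba* passed without injured C57BL/6 replicate 4 (1.04) or injured STR/ort replicate 3 (0.95) or 5 (0.85). *Ltbp2* passed without injured C57BL/6 replicate 2, 3 or 5, uninjured C57BL/6 replicate 5, or injured or uninjured STR/ort replicate 1 (-0.80 to -0.74), and *Grem1* without uninjured STR/ort replicate 3 (adjusted p = 0.0482).

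At 1-week 1 member, *Inhba*, was called between STR/ort and MRL/MpJ (difference 1.19, SE 0.27; adjusted p = 0.0217; 0.884% of all genes called). It was not called without uninjured MRL/MpJ replicate 3 (1.08, adjusted p = 0.0628) or when the fit held just the compared strains (adjusted p = 0.0569). Between STR/ort and C57BL/6 the *Inhba* difference was 1.06 (adjusted p = 0.0501) and no member was called (0.491% of all genes). *Inhba* passed there without injured C57BL/6 replicate 5, injured STR/ort replicate 3, 4 or 5 or uninjured STR/ort replicate 1 (1.11 to 1.20), and *Tgfbi* (0.60, adjusted p = 0.153) without injured STR/ort replicate 4 (0.71, adjusted p = 0.0493). Between C57BL/6 and MRL/MpJ no member was called, and 0% of all genes were. At 2-weeks 2 members were called between STR/ort and MRL/MpJ (0.451% of all genes), *Inhba* (1.03, SE 0.18; adjusted p = 0.00502) and *Tgfbi* (0.70, SE 0.14; adjusted p = 0.018). The *Tgfbi* call ended without uninjured MRL/MpJ replicate 1 (0.62, adjusted p = 0.073). *Tgfbi* also differed between STR/ort and C57BL/6 (0.84, SE 0.14; adjusted p = 0.0102; 1 of 10 members against 0.0462% of all genes), and no member between C57BL/6 and MRL/MpJ (0%). *Inhba* was 0.87 between STR/ort and C57BL/6 (adjusted p = 0.0678), and was called without injured STR/ort replicate 2 (0.96), 3 (0.91) or 5 (0.67). Comparisons of one time point share their libraries and are not independent of each other.

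Blocking on the replicate number raised the called differences of injury effect from 6 to 11. The share of all genes called under the block was not compared, so this rise cannot be read as particular to the members. At 2-weeks the labels assign both joints of a number to the same animal. In STR/ort at 1-week the labels name no animal, and pairing by number was inferred from the data. The other 1-day and 1-week groups share only a number. The 3 members gained at 1-week between STR/ort and C57BL/6 were *Tgfbi* (0.63, adjusted p = 0.011), *Inhba* (1.05, adjusted p = 0.00178) and *Bmp4* (-0.64, adjusted p = 0.0465).

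Between strains, 9 of 30 differences were called at 0-day, 43 of 90 in injured joints and 36 of 90 in uninjured joints. Before injury, *Ltbp2* and *Grem1* set the strains apart. *Ltbp2* had 7.79, 8.60, 8.44 and 7.41 CPM in MRL/MpJ, 30.0, 32.5, 30.8 and 32.5 CPM in C57BL/6 and 32.0, 33.6, 27.9 and 33.0 CPM in STR/ort. MRL/MpJ was clearly lowest and the other strains overlapped. The log2 difference from MRL/MpJ was 2.00 in C57BL/6 (SE 0.10; adjusted p = 3.08e-11) and 1.97 in STR/ort (SE 0.10; adjusted p = 4.24e-11). *Grem1* ran the other way, with 9.67 ± 1.05 CPM in MRL/MpJ, 7.13 ± 2.06 CPM in C57BL/6 and 3.20 ± 0.477 CPM in STR/ort (SD, n = 4 each), and was lower in STR/ort than in MRL/MpJ (-1.60, adjusted p = 7.64e-06) and than in C57BL/6 (-1.20, adjusted p = 0.00019).

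At 0-day 3 of 10 members differed between STR/ort and MRL/MpJ (14.8% of all genes), 1 between STR/ort and C57BL/6 (13.8%) and 5 between C57BL/6 and MRL/MpJ (15.9%). *Tgfb2* was lower in MRL/MpJ (32.6 ± 2.53 CPM) than in C57BL/6 (52.3 ± 4.78 CPM) and STR/ort (56.7 ± 4.33 CPM; SD, n = 4 each), by 0.72 and 0.80. *Tgfbi* (1.04) and *Bmp4* (0.77) were higher in C57BL/6 than in MRL/MpJ, and *Gdf5* was called there too (1.83, adjusted p = 0.027), a call that ended without MRL/MpJ replicate 1 (1.98, adjusted p = 0.0546), 2 (1.64, 0.0836) or 4 (1.54, 0.0665) or C57BL/6 replicate 1 (1.5, 0.091), under RUVg and in DESeq2 (adjusted p = 0.0678). RUVg with 2 factors left 4 of the 9 calls at 0-day, those of *Ltbp2* and that of *Tgfb2* and *Grem1* between STR/ort and MRL/MpJ. It ended the 4 other calls between C57BL/6 and MRL/MpJ, which were *Tgfb2* (0.18, adjusted p = 0.774), *Tgfbi* (0.87, adjusted p = 0.0883), *Bmp4* (1.00, adjusted p = 0.119) and *Gdf5* (3.34, adjusted p = 0.371), and that of *Grem1* between STR/ort and C57BL/6 (-0.96, adjusted p = 0.241).

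In uninjured contralateral joints at 1-day, 7 members differed between STR/ort and MRL/MpJ (22.6% of all genes), 1 between STR/ort and C57BL/6 (10.5%) and 2 between C57BL/6 and MRL/MpJ (14.8%). At 1-week the counts were 7 (24.4%), 8 (22.2%) and 2 (8.53%), and at 2-weeks 4 (13.8%), 3 (9.78%) and 2 (9.83%). *Ltbp2* was lower in MRL/MpJ than in either other strain at all 3 times, by log2 differences of 1.49 to 2.46, without overlap of libraries. *Tgfb2* was higher in STR/ort than in MRL/MpJ at all 3 times (0.88, 1.08 and 0.74) and than in C57BL/6 at 1-week (1.04) and 2-weeks (0.74). For *Grem1* the log2 difference between STR/ort and MRL/MpJ was -1.12, -1.73 and -1.77 in the same order of times.

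Other strain differences in uninjured joints came nearer to the thresholds. *Gdf5* was called higher in STR/ort than in MRL/MpJ at 1-day (1.83, adjusted p = 0.021), but not without uninjured MRL/MpJ replicate 3 (1.55) or 4 (1.69) or STR/ort replicate 2 (1.47). Its 1-week differences from MRL/MpJ (1.74, adjusted p = 0.0372) and C57BL/6 (1.93, adjusted p = 0.0152) ended without STR/ort replicate 4 (1.25 and 1.43), the first also without STR/ort replicate 2 (1.76, adjusted p = 0.0528) or MRL/MpJ replicate 2, 3 or 4 (1.59 to 1.75). *Bmp4* was higher in STR/ort than in MRL/MpJ at 1-day (0.64) and 1-week (0.59), and fell to 0.58 without MRL/MpJ replicate 4 at 1-day and to 0.49 to 0.56 without MRL/MpJ replicate 1 or 3 or STR/ort replicate 1 at 1-week. *Tgfb3* at 1-day (0.61 against MRL/MpJ) fell to 0.53 without STR/ort replicate 2, and *Inhba* at 1-week (0.64 against C57BL/6) to 0.55 without STR/ort replicate 1. *Bmp2* was 0.70 higher in STR/ort than in C57BL/6 at 1-week (adjusted p = 0.000234), and lost the call under the scalings given next. *Grem1* differed between STR/ort and C57BL/6 at 1-day (-0.67, adjusted p = 0.0166), but not without C57BL/6 replicate 4 (-0.52) or STR/ort replicate 3 (-0.49), and between C57BL/6 and MRL/MpJ at 1-week (-0.62, adjusted p = 0.0336), but not without MRL/MpJ replicate 2, 3 or 4 or C57BL/6 replicate 2, 4 or 5 (adjusted p 0.0575 to 0.1). *Tgfbi* at 2-weeks (0.59 between C57BL/6 and MRL/MpJ) was 0.51 to 0.58 without MRL/MpJ replicate 2 or 5 or C57BL/6 replicate 1 or 4.

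Of the 36 calls in uninjured joints, 7 were lost under RUVg with 1 factor, 8 with 2 factors and 7 under housekeeping scaling. Another setting, fits of just the compared groups, lost 2. Most of those lost under RUVg and housekeeping scaling were differences of STR/ort at 1-week. RUVg with 1 and with 2 factors ended those from C57BL/6 of *Bmp2* (0.53 and 0.57, adjusted p = 0.118 and 0.113), *Inhba* (0.58 and 0.57, adjusted p = 0.224 and 0.28), *Ltbp2* (0.48 and 0.50, adjusted p = 0.18 and 0.206) and *Gdf5* (2.18 and 2.33, adjusted p = 0.135 and 0.163). They also ended those from MRL/MpJ of *Bmp4* (0.30 and 0.38, adjusted p = 0.451 and 0.517) and *Gdf5* (2.04 and 2.37, adjusted p = 0.248 and 0.385). *Tgfbi* at 2-weeks fell under the fold threshold (0.52 and 0.55), and *Grem1* at 1-week between C57BL/6 and MRL/MpJ was lost with 2 factors (-0.95, adjusted p = 0.0581). Housekeeping scaling took the same *Tgfbi* difference to 0.57, *Bmp4* and *Tgfb3* at 1-day to 0.53 and 0.50, and at 1-week *Bmp2* to 0.56, *Inhba* to 0.50 and *Bmp4* to 0.45, all under the fold threshold, and *Gdf5* from MRL/MpJ to 1.60 (adjusted p = 0.0524).

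In injured joints, 5 members differed at 1-day between STR/ort and MRL/MpJ (20.3% of all genes), 3 between STR/ort and C57BL/6 (12.4%) and 5 between C57BL/6 and MRL/MpJ (16.3%). At 1-week 7 (29.5%), 7 (25.1%) and 2 (9.47%) differed, and at 2-weeks 7 (18.9%), 4 (10.4%) and 3 (11.5%). In injured STR/ort joints at 1-week, *Tgfb2*, *Tgfb3*, *Tgfbi*, *Ltbp2*, *Inhba* and *Gdf5* were higher and *Grem1* lower than in both other strains, each without overlap of libraries. Against MRL/MpJ the log2 differences were 1.37 for *Tgfb2*, 1.17 for *Tgfb3*, 1.80 for *Tgfbi*, 2.40 for *Ltbp2*, 1.75 for *Inhba*, 2.94 for *Gdf5* and -2.25 for *Grem1*. *Bmp2* (0.29) and *Bmp4* (-0.05) did not pass the threshold there. RUVg with 2 factors ended the *Gdf5* calls against both strains (adjusted p = 0.109 and 0.0655) and the *Ltbp2* call against C57BL/6 (adjusted p = 0.0671). At 1-day, RUVg with 1 or 2 factors ended the *Bmp2* call against C57BL/6 (0.76, adjusted p = 0.000428; 0.58 with each, under the fold threshold) and the *Inhba* call against MRL/MpJ (adjusted p = 0.0919 and 0.0902). Housekeeping scaling took *Inhba* (0.41) and *Tgfb2* (0.44) against MRL/MpJ at 1-day under the fold threshold.

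One library, injured STR/ort replicate 1 at 1-week, held the highest value of all 100 libraries for *Tgfb2* (120 CPM), *Tgfb3* (164), *Tgfbi* (917), *Inhba* (154) and *Gdf5* (10.8), and the lowest for *Grem1* (0.813). Without it the injury effects of STR/ort at 1-week were 1.32 for *Tgfbi*, 1.62 for *Inhba*, 0.80 for *Ltbp2*, 0.71 for *Tgfb3* and 1.69 for *Gdf5*, and all 5 stayed called. The difference of the *Inhba* effect from that of MRL/MpJ was then 0.94 (adjusted p = 0.0262).

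The log2 difference of *Grem1* between injured STR/ort and injured MRL/MpJ joints was -2.13, -2.25 and -2.07 in the order of the times, with no overlap. Between C57BL/6 and MRL/MpJ it was -0.64, -0.65 and -0.65, but these calls were near the fold threshold. They ended without MRL/MpJ replicate 4 (-0.50) or C57BL/6 replicate 3 (-0.58) at 1-day, without MRL/MpJ replicate 4 (-0.56) or C57BL/6 replicate 2 (-0.53) or 5 (-0.58) at 1-week, and without MRL/MpJ replicate 2 (-0.55) or 5 (-0.57) or C57BL/6 replicate 5 (-0.57) at 2-weeks. A few other calls in injured joints at 1-day were as close: *Inhba* (0.60 between STR/ort and MRL/MpJ; 0.50 to 0.58 without MRL/MpJ replicate 1, 4 or 5 or STR/ort replicate 1 or 2), *Tgfb2* (0.62 in the same comparison; 0.58 without MRL/MpJ replicate 3 or 4 or STR/ort replicate 5) and *Tgfbi* (0.68 between C57BL/6 and MRL/MpJ; 0.58 without C57BL/6 replicate 4).

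Within batch 1, levels were also followed over time. From 1-day to 1-week after injury, 3 members rose in injured STR/ort joints (13% of all genes called in either direction): *Gdf5* (3.80, SE 0.50; adjusted p = 3.19e-06), *Tgfb3* (1.36, SE 0.13; adjusted p = 3.99e-08) and *Tgfb2* (1.18, SE 0.11; adjusted p = 1.27e-08). *Tgfb3* went from 47.7 ± 6.79 to 122 ± 27.6 CPM and *Tgfb2* from 44.0 ± 4.92 to 99.3 ± 15.1 CPM (SD, n = 5 each), without overlap. In MRL/MpJ 2 members fell over the same interval (3.52% of all genes), *Ltbp2* (above) and *Inhba* (-0.60, adjusted p = 0.00138), the latter under the fold threshold without 1-day replicate 2 (-0.45) or 3 (-0.58) or 1-week replicate 1 (-0.53). In C57BL/6 *Ltbp2* and *Tgfbi* (-0.70, adjusted p = 3.14e-05) fell, 2 of 10 members against 4.35% of all genes. Housekeeping scaling left *Tgfbi* under the fold threshold (-0.55).

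The contralateral joint was compared with the 0-day joint to see whether the uninjured side moved. In MRL/MpJ no member was called at 1-day (0.156% of all genes) or at 1-week (0%), and in C57BL/6 none at 1-day (0.0462%). In C57BL/6 at 1-week 2 members were lower than at 0-day (5.54% of all genes): *Tgfb2* (-0.62, adjusted p = 0.000522) and *Bmp2* (-0.59, adjusted p = 0.00358). The first was under the fold threshold without 0-day replicate 4 (-0.56) or 1-week replicate 4 (-0.57), the second without 0-day replicate 2 (-0.58) or 4 (-0.55) or 1-week replicate 3 (-0.56) or 4 (-0.52). In STR/ort *Tgfbi* was higher in the contralateral joint than at 0-day, at 1-day (0.66, adjusted p = 0.00425; 1 member, 8.89% of all genes) and at 1-week (0.77, adjusted p = 0.00128; 1 member, 12.6%). The 1-day call ended without 0-day replicate 2 (0.58) or 1-day replicate 2 (0.56), and RUVg with 1 factor ended both (adjusted p = 0.392 and 0.0678). Of all 11 calls over time, in injured and contralateral joints, housekeeping scaling ended 2, RUVg with 1 factor 3 and RUVg with 2 factors 3.

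The make-up of the TGF-beta ligands was taken from CPM per kilobase of transcript, so that genes of different length could be compared, and tested with exact permutation tests (two-sided, 36 tests with Benjamini-Hochberg adjustment; the smallest p that 5 against 5 or 5 against 4 libraries allow is 0.00794). *Tgfb1* had the largest mean share in all 21 groups, but in injured STR/ort joints at 1-week it made up 39.5 ± 2.90% (SD, n = 5) beside 39.2 ± 3.38% of *Tgfb3*, a difference smaller than the spread. In uninjured STR/ort joints at that time the shares were 55.2 ± 3.71% and 26.7 ± 4.85% (SD, n = 4). The share of *Tgfb3* was higher in injured joints in 6 of 9 comparisons: C57BL/6 at all 3 times, STR/ort at 1-week and 2-weeks, and MRL/MpJ at 1-week (28.4 ± 4.42% against 21.2 ± 1.97%; exact permutation p = 0.0159, adjusted p = 0.0381). The share of *Tgfb1* was lower in injured joints in 4 comparisons, all of C57BL/6 and STR/ort at 1-week and 2-weeks (adjusted p = 0.0286 each). The shares are parts of the same sum, so a higher share of *Tgfb3* lowers that of *Tgfb1*, and these tests are not independent. The level of *Tgfb1* itself was not called between injured and uninjured joints. At 2-weeks both joints came from the same animal by the labels. In STR/ort at 1-week the labels name no animal, and pairing by number was inferred from the data. An exact sign-flip permutation test over those pairs, added after the data were seen, cannot go below 0.0625 with 5 pairs or 0.125 with 4, so it could call none of the 9 ratio differences called at these points. In each of the 9 every pair moved in the same direction (5 of 5 at 2-weeks, 4 of 4 in STR/ort at 1-week), and each had the smallest p its pairs allow (two-sided).

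**Figure D4:**
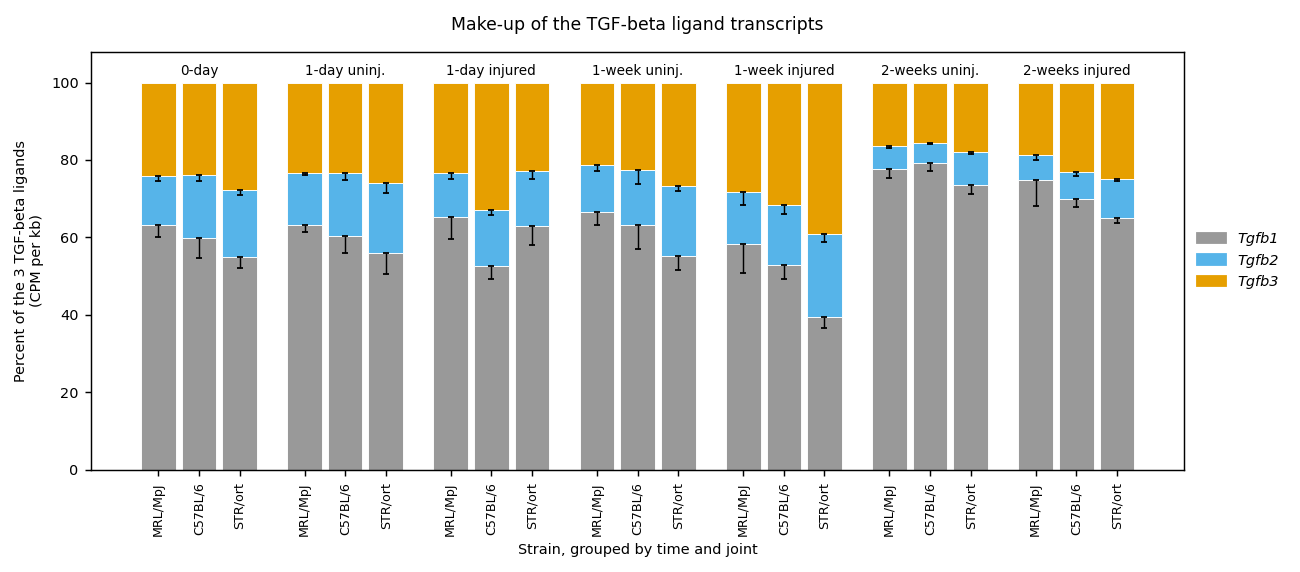
Mean percentage of the summed CPM per kilobase of *Tgfb1*, *Tgfb2* and *Tgfb3* that each makes up, as stacked bars from 0 to 100 for each strain, time and joint, with the SD of the *Tgfb1* and *Tgfb2* shares drawn downward from the top of their segments (n = 4 or 5). The *Tgfb1* segment is shortest in injured STR/ort joints at 1-week (39.5%). The 2-weeks groups, which are another batch, run from 64.9% in injured STR/ort to 79.1% in uninjured C57BL/6 joints.

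*Tgfb2* made up 5.33% to 21.3% of the ligand transcripts by group mean. Its share was lower in injured joints at 1-day in MRL/MpJ (11.3 ± 1.49% against 13.4 ± 0.513%) and STR/ort (14.0 ± 1.81% against 18.1 ± 2.62%), and higher at 2-weeks in C57BL/6 (6.91 ± 1.03% against 5.33 ± 0.332%) and STR/ort (10.2 ± 0.571% against 8.58 ± 0.508%; SD, n = 5 each; adjusted p from 0.0286 to 0.0381). The log2 ratio of *Grem1* to the sum of *Bmp2* and *Bmp4* covers the RNA of these genes only. It was lower in injured than uninjured C57BL/6 joints at 2-weeks (-2.71 ± 0.174 against -2.05 ± 0.265; SD, n = 5 each; exact permutation p = 0.00794, adjusted p = 0.0286). Of 13 other secreted antagonists, 4 were called higher and 0 lower in that comparison (2.88% of all genes higher, 0.0693% lower). The *Grem1* ratio was lower in injured joints by mean in all 9 comparisons but passed the adjusted threshold in that one. By group mean it was -1.45 to -2.03 in MRL/MpJ, -2.05 to -2.71 in C57BL/6 and -3.20 to -4.22 in STR/ort.

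The other genes of the pathway were counted from lists of ligands, receptors, SMADs, inhibitors, antagonists, latency proteins and response genes. The lists held 74 genes, with 666 differences over the 9 injury comparisons. Of these, 93 were called higher and 10 lower in injured joints, where 3.24% and 1.08% of the differences of all genes were. The lists were chosen with earlier results of these data known, so the contrast with all genes may reflect that choice. By comparison, in the order MRL/MpJ, C57BL/6 and STR/ort, the share of all genes called higher was 1.53%, 4.26% and 1.61% at 1-day, 2.93%, 4.75% and 5.67% at 1-week and 1.14%, 2.88% and 4.34% at 2-weeks. Of 9 response genes, 3, 3 and 2 were higher at 1-day in MRL/MpJ, C57BL/6 and STR/ort, 4, 4 and 4 at 1-week and 2, 3 and 4 at 2-weeks. *Postn*, encoding the matrix protein periostin, was called in 8 of 9 and reached 3.02 in STR/ort at 1-week (adjusted p = 1.35e-09).

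**Figure D5:**
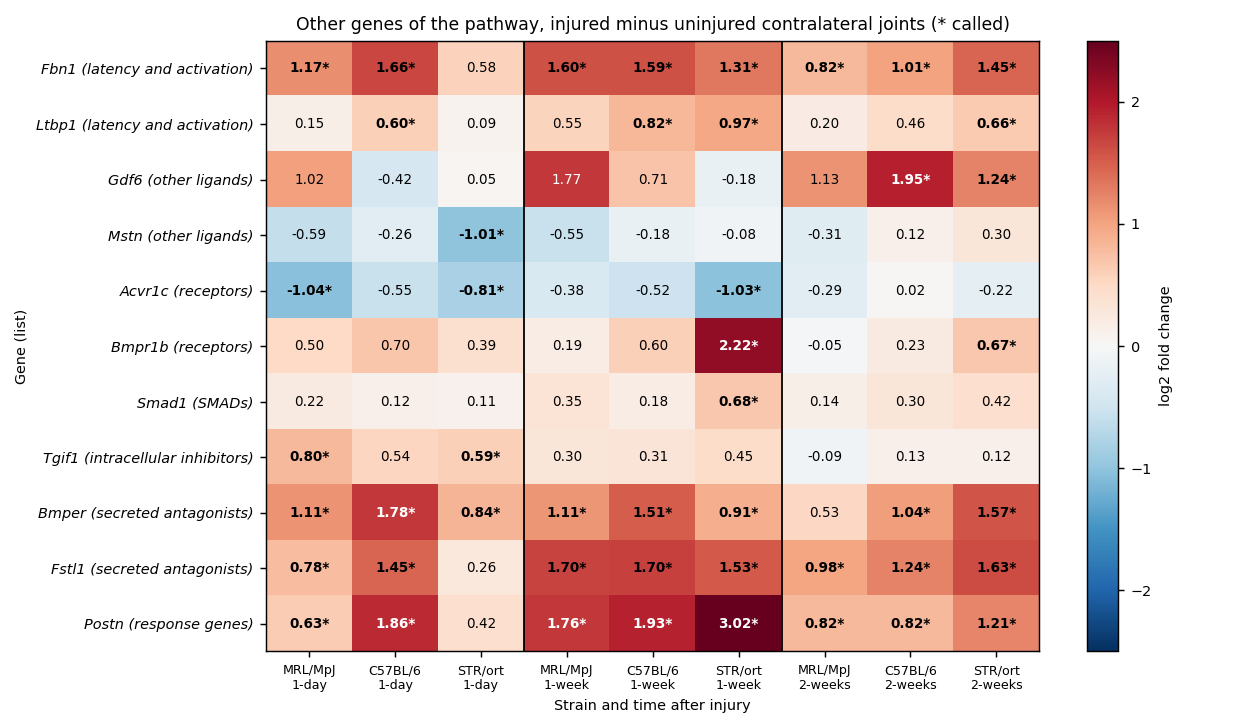
Log2 fold change between injured and uninjured contralateral joints for 11 other pathway genes (rows, with the list each belongs to) in each strain and time point, asterisks on called differences, color scale in log2 units. *Fbn1*, *Fstl1*, *Bmper* and *Postn* are called in 8 of 9 columns, whereas the receptor, SMAD and intracellular inhibitor rows hold few calls.

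Of 13 secreted antagonists other than *Grem1*, 4, 4 and 2 were higher at 1-day in MRL/MpJ, C57BL/6 and STR/ort, 4, 4 and 4 at 1-week and 2, 4 and 4 at 2-weeks, with 1 lower in STR/ort at each time (2.7%, 3.54% and 0.318% of all genes lower). *Bmper*, a modulator of BMP activity, rose in 8 of 9 (0.84 to 1.78 where called) and *Fstl1*, a follistatin-like protein, in 8 of 9 (0.78 to 1.70 where called). *Grem1* was lower in STR/ort at 1-day while *Bmper* was higher (0.84, adjusted p = 0.00309). Of 11 latency and activation genes, 1, 3 and 0 were higher at 1-day, 2, 4 and 4 at 1-week and 1, 3 and 5 at 2-weeks. *Fbn1*, encoding the fibrillin to which latent complexes attach, was called in 8 of 9 (0.82 to 1.66), and *Ltbp1*, which does bind latent TGF-beta, in 4 of 9 (0.60 to 0.97).

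Of 14 receptors, 4 were called in STR/ort at 1-week, where 5.67% of all genes were called higher and 3.54% lower, and at most 1 in any other comparison. *Acvr1c* was lower in 3 comparisons (-1.04 in MRL/MpJ and -0.81 in STR/ort at 1-day, -1.03 in STR/ort at 1-week) and *Bmpr1b*, a type I BMP receptor, was higher in STR/ort at 1-week (2.22, adjusted p = 1.14e-05) and 2-weeks (0.67, adjusted p = 0.00612). Of 6 SMADs, *Smad1* was called once, in STR/ort at 1-week (0.68, adjusted p = 8.23e-05). Of 8 intracellular inhibitors, *Tgif1* was higher at 1-day in MRL/MpJ (0.80) and STR/ort (0.59). Of 13 other ligands, *Gdf6*, a close relative of *Gdf5*, was higher at 2-weeks in C57BL/6 (1.95, adjusted p = 0.00214) and STR/ort (1.24, adjusted p = 0.0128), and *Mstn*, the muscle ligand myostatin, was lower in STR/ort at 1-day (-1.01, adjusted p = 0.0118).

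Markers of other cells moved with these results. The summed CPM of 6 fibroblast genes did not overlap between injured and uninjured joints in 8 of 9 comparisons, being higher in injured joints. In STR/ort at 1-week the sums were 20280 to 30552 CPM against 5737 to 12333 CPM. *Fbn1*, given above among the latency and activation genes, is also in this list, so the lists are not separate observations. In STR/ort at 1-day, where *Tgfbi*, *Ltbp2* and *Inhba* rose, the fibroblast sums overlapped (5928 to 8541 CPM injured, 5739 to 10363 CPM uninjured) and 0 of 6 fibroblast genes were called by edgeR. Of 5 tendon and ligament genes, 1, 1 and 0 were higher at 1-day, 4, 4 and 5 at 1-week and 3, 4 and 5 at 2-weeks in MRL/MpJ, C57BL/6 and STR/ort. Of the 5, 2 were lower in STR/ort at 1-day (median log2 fold change of the list -0.51). Of 7 macrophage genes, 4 were higher in C57BL/6 at 1-day (sums of 751 to 934 CPM against 526 to 607 CPM). Fast muscle genes were lower in injured STR/ort joints at 1-day (5 of 8 genes) and 1-week (7 of 8), and their sums overlapped (13658 to 29986 CPM injured and 27932 to 53225 CPM uninjured at 1-week). Of 6 slow muscle genes, 6 were lower in C57BL/6 at 1-week (sums of 79.7 to 189 CPM injured against 292 to 828 CPM uninjured) and 4 in STR/ort at 1-week, where the sums overlapped. None of these marker genes was at 0 in any group, and their part in the results for the members was not tested.

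The sums of 5 synovial lining genes did not overlap in 5 of 9 comparisons, all higher in injured joints (C57BL/6 at each time, MRL/MpJ at 1-week and 2-weeks), with 2637 to 3238 CPM against 1462 to 1555 CPM in MRL/MpJ at 1-week. The single genes went both ways. At 1-day 2, 2 and 1 were higher and 1, 2 and 3 lower in MRL/MpJ, C57BL/6 and STR/ort (medians -0.43, -0.43 and -0.70), at 1-week 2, 2 and 0 were higher and 0, 1 and 2 lower, and at 2-weeks 3, 3 and 2 were higher and none lower. Marrow neutrophil sums were lower without overlap in 3 (C57BL/6 at 1-day and 2-weeks, STR/ort at 1-week), and in the last 4 of 8 genes were lower, with 8340 to 11844 CPM against 13651 to 18289 CPM. Of 8 bone genes, 4 were lower and 1 higher in STR/ort at 1-week, while their sums overlapped (14013 to 25231 CPM injured, 11407 to 16555 CPM uninjured). Of 8 cartilage genes, 3 in C57BL/6 and 2 in STR/ort were higher at 1-week and 2 in C57BL/6 and 4 in STR/ort at 2-weeks, the comparisons in which *Gdf5* was called, and 1 in MRL/MpJ at each of these times, with 1 lower in C57BL/6 and in STR/ort at 1-day. In STR/ort at 2-weeks the cartilage sums (3925 to 5744 CPM against 2294 to 3423 CPM) and bone sums (13726 to 18064 CPM against 8816 to 12075 CPM) did not overlap, although 1 of 8 bone genes was called higher and their median log2 fold change was -0.10. Cartilage sums overlapped in the other 8 comparisons. *Gdf5*, *Tgfbi* and *Inhba* were the members called in that comparison. Endothelial sums were higher without overlap in STR/ort at 1-week (347 to 436 CPM against 245 to 295 CPM) and 2-weeks, and white fat sums lower in 4 comparisons, with 3 of 5 genes lower in STR/ort at 1-day (79.7 to 123 CPM against 125 to 166 CPM). B cell sums were lower in C57BL/6 at 2-weeks (231 to 270 CPM against 285 to 320 CPM). Their part in the results was not tested either.

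Members were compared with each other and with all genes by the Pearson correlation of mean log2 CPM over the 21 groups, which share strains, times and the batch, so these values only describe the pattern. *Tgfbi* was closest to *Ltbp2* (0.89) and *Inhba* (0.85), and *Gdf5* to *Tgfb3* (0.87). *Grem1* ran against *Ltbp2* (-0.73), *Tgfb3* (-0.72) and *Gdf5* (-0.69). Among all genes, the pattern of *Tgfbi* was most like that of *Bcat1* (0.975), *Il13ra1* (0.968) and *Pcsk5* (0.965), and that of *Inhba* like *Clec4n* (0.95), *Il11* (0.94) and *Htr2b* (0.92). *Gdf5* was most like *Camkk1* (0.96), *Col4a1* (0.94) and *Col4a2* (0.94), *Tgfb3* like *Tspan11*, *Myadm* and *Emp2* (all 0.96), and *Ltbp2* like *Arfip1* (0.95), *Klrb1b* and *Cyfip1* (both 0.94).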

How the data were processed

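Whole knee joints of 100 samples were profiled by poly(A)-enriched RNA-seq. Per the labels and the study's methods, the authors aligned reads of all 3 strains to mm10 with TopHat2 2.0.11 and counted RefSeq genes with featureCounts of the Rsubread package, and the deposited values are raw counts per gene. Reads of STR/ort and MRL/MpJ that differ from the reference may align less often, which can lower counts in these strains. Of 17313 rows, 3 repeats were dropped; a minimum of 2 counts in 5 or more libraries removed 0 genes, and 24 names that a spreadsheet had turned into dates were kept in the fit. Total counts ranged from 6182016 to 20986027. No pair of the 190 within-group pairs was identical.

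Counts were tested with edgeR 4.0.16 in R 4.3.3 (TMM factors, quasi-likelihood test, Benjamini-Hochberg adjustment over 17310 genes, called at adjusted p below 0.05 and fold change above 1.5). 1 fit covered the libraries of each later time point, one the 0-day libraries, and one per strain those of batch 1. The study used RUVseq before edgeR without giving the number of factors here, so RUVg with 1 and 2 factors stood as alternatives, beside DESeq2 1.42.0, RLE size factors, scaling by 25 housekeeping genes, filterByExpr, no filter, fits of the compared groups, a replicate block, and each library left out. The fits were checked on simulated counts. Same-numbered injured and uninjured joints come from the same animal at 2-weeks by the labels; at 1-week in STR/ort the correlation of their deviations was over 0.1 in 4 of 4 pairs (0.102 to 0.231), and at 1-day and in the other strains at 1-week not in every pair. At 2-weeks it was over 0.1 in 5 of 5 pairs in C57BL/6 and STR/ort and in 0 of 5 in MRL/MpJ (-0.161 to 0.0755). The labels pair those MRL/MpJ joints all the same, so this correlation cannot settle pairing where the labels name no animal. Exon lengths and positions came from a GRCm38 annotation, promoters from RefSeq.

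The text names all 10 members, from each pathway list the genes called in the most of 9 injury comparisons (at most 2 a list, ties by mean absolute log2 fold change), and for each member the 3 genes with the highest correlation over 21 groups. The members and lists were chosen with earlier results of these data known. 1 gene that this rule names is not reported here.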

Additional observations from a re-analysis of the deposited data

Results flagged for a closer look

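Of 210 sets of one member in one group, 16 held a library that stood apart from the others of its group by Dixon's test at the 95% level, where chance gives about 1 in 20. *Gdf5* in injured STR/ort replicate 1 at 1-week (10.8 CPM, against 2.85 to 3.49 CPM in the other 4) was the widest gap, and the same library was low for *Grem1* (0.813 CPM). Injured MRL/MpJ replicate 4 at 2-weeks was high for *Tgfb2* (33.0 CPM) and *Tgfb3* (68.7 CPM), and no member was called in that comparison with or without it. *Tgfb3* was also high in uninjured STR/ort replicate 2 at 1-day (68.1 CPM) and injured MRL/MpJ replicate 3 at 1-week (64.0 CPM), and low in uninjured STR/ort replicate 3 at 1-week (49.2 CPM) and replicate 5 at 2-weeks (50.6 CPM).

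*Tgfb2* was high in STR/ort replicate 3 at 0-day (63.2 CPM), and *Inhba* in injured STR/ort replicate 5 at 2-weeks (54.2 CPM). *Bmp2* was low in injured STR/ort replicate 3 at 1-day (10.1 CPM) and high in injured C57BL/6 replicate 4 at 2-weeks (10.9 CPM), and *Bmp4* was low in uninjured MRL/MpJ replicate 4 at 1-day (8.71 CPM). *Grem1* was high in STR/ort replicate 2 at 0-day (3.91 CPM) and low in uninjured STR/ort replicate 2 at 1-week (1.33 CPM). *Gdf5* had 0 counts in injured STR/ort replicate 2 at 1-day, where the other 4 libraries of the group had 0.342 to 0.439 CPM.

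The injury effect differed between strains for 4 members by edgeR's interaction test. At 1-day the log2 difference between STR/ort and C57BL/6 was -0.89 for *Tgfb3* and 0.76 for *Bmp2*. At 1-week that between STR/ort and MRL/MpJ was 1.19 for *Inhba*. At 2-weeks it was 0.70 for *Tgfbi* and 1.03 for *Inhba* against MRL/MpJ and 0.84 for *Tgfbi* against C57BL/6.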

How the results depend on the processing

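Of 133 called differences of the members, 94 stayed called under every alternative run. By setting, DESeq2 kept 132, RLE size factors 133 and fits of the compared groups 129. With filterByExpr 131 were kept and 0 lost, and the others were not tested because the filter had removed the gene. Housekeeping scaling kept 120, RUVg with 1 factor 118 and with 2 factors 110, and dropping the count filter changed none. The count of called strain differences at 0-day was 9, and 4 under RUVg with 2 factors. The count of called differences of injury effect was 6, 10 in DESeq2 and 11 with the replicate block, which changed no other member call than those given in the report, *Inhba* (0.84, adjusted p = 0.00805) and *Ltbp2* (-0.66, adjusted p = 0.0493) at 1-day between STR/ort and C57BL/6. RUVg with 1 factor also gained 12 calls. It called 3 more differences in the direction opposite to the main fit, all of *Tgfb1* at 1-week, lower in STR/ort. Between STR/ort and C57BL/6 injured joints *Tgfb1* was 0.16 and became -0.59. Between STR/ort and MRL/MpJ it was 0.10 in injured joints and became -0.78, and 0.23 in uninjured joints and became -0.71. The cause was not tested. Of 36 ratio tests 15 were called, and 0 with the replicate block where the number was taken to pair the joints. That test was chosen after seeing the data. Its smallest p for 9 of the 15 is 0.0625 or 0.125, and the adjustment then moves the other 6. With single libraries left out, the counts ranged from 26 to 30 for injury, 8 to 10 at 0-day, 41 to 44 in injured joints, 34 to 38 in uninjured joints, 5 to 8 for the injury effect, 9 to 12 over time, 98 to 107 for pathway genes and 13 to 17 for ratios. Housekeeping scaling moved the median of all genes by over 0.1 on the log2 scale in 8 of 48 comparisons (-0.18 to 0.15). Depth limits *Gdf5* most, with a median of 5 counts per library.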

Other observations

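The members not placed beside other genes in the report had these nearest patterns over the 21 groups, by the Pearson correlation of mean log2 CPM, as a description of groups that share strains, times and batch. *Tgfb1* was most like *Isyna1* (0.985), *Frmd8* (0.982) and *Fbxl6* (0.980), *Tgfb2* like *Faim2* and *Olfml1* (both 0.953) and *Colec12* (0.950), and *Grem1* like *Fcna* (0.959), *Sord* (0.955) and *Zfp367* (0.951). *Bmp2* was most like *Kcnk1* (0.898), *Nagpa* (0.891) and *Snora41* (0.885), and *Bmp4* like *Crispld1* (0.884), *Pcp4* (0.875) and *Calml3* (0.861).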
